A study of Mus musculus with 22 samples.

Results

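The messages of 8 ligand-sensing nuclear receptors, 8 of the 47311 genes in the summed tables, were followed in 22 RNA-seq libraries of sorted mouse blood stem and precursor cells with and without ARID1A. They were the retinoid X receptor genes Rxra and Rxrb, the retinoic acid receptor genes Rara and Rarg, the vitamin D receptor gene Vdr, the liver X receptor genes Nr1h2 and Nr1h3, and Ppard, the gene of a peroxisome proliferator-activated receptor. They were chosen by name as one receptor family, and the values of all transcripts of each gene were added. The study asked how loss of ARID1A, a DNA-binding subunit of the SWI/SNF chromatin remodelling complex, alters haematopoiesis.

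All mice were on a C57BL/6 background. Per the study's methods, the floxed line had been backcrossed to it before the cross with Mx1-Cre. By the same methods, all mice carried Arid1a f/f, an allele with an exon between loxP sites, and received poly(I:C) as adults. KO mice also carried Mx1-Cre (Arid1a f/f;Mx1-Cre+), whereas WT denotes littermates of the same sex without it (Arid1a f/f;Mx1-Cre-), which had the same injections, so the floxed allele and poly(I:C) were common to both. The Mx1 promoter responds to interferon and is not restricted to blood cells, so that recombination outside the marrow cells studied is a limit of the model. Long-term haematopoietic stem cells (LT-HSC) came from 2 WT and 2 KO mice, and common myeloid (CMP), granulocyte-macrophage (GMP) and megakaryocyte-erythroid (MEP) precursors each came from the same 3 WT and 3 KO mice. That each library came from 1 mouse, and that precursors shared mice, was read from the replicate numbers, whose meaning the labels do not give. LT-HSC libraries were made with another kit (SMART-Seq v4) than the precursors (TruSeq, poly-A selected), from other mice, so population and kit cannot be told apart and LT-HSC were not tested against precursors. Precursors had been gated by surface CD34 and Fcγ receptor. The paper reports less CD34 on the surface of KO CMP and GMP than of control cells. Whether these gates held like cells in both genotypes was not tested.

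Nuclear receptors are transcription factors switched by small lipophilic ligands. RXR proteins are the shared partners that pair with RAR, VDR, LXR and PPAR proteins on DNA, where the pair recruits corepressors without ligand and coactivators with it. In bone marrow, retinoic acid signalling through RAR is known for driving granulocyte maturation and for maintaining stem cell quiescence, vitamin D for promoting monocyte features, and LXR and PPAR for lipid handling in myeloid cells.

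The libraries held between 40804031 and 65930737 estimated counts on genes. One WT LT-HSC library stood apart, with 27191 genes at 10 or more counts against 18504 to 22407 in the other LT-HSC libraries. Summed LT-HSC markers lay between 869 and 1378 TPM (kallisto's level per transcript length, scaled to one total per library) in LT-HSC and at no more than 227 TPM elsewhere, GMP markers between 31671 and 47224 TPM in GMP, and MEP markers between 5858 and 8447 TPM in MEP. MEP markers were also at 3200 to 6340 TPM in LT-HSC. Arid1a message was lower in KO in CMP (log2 fold change -0.22), GMP (-0.40) and MEP (-0.14), and at -1.14 in LT-HSC without passing the test (FDR = 0.421). Message without the deleted exon is still counted, so this does not measure the deletion.

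Promoters are shown for Rxra and Rarg, the genes with the largest fall and the largest rise in KO GMP. Rarg also has separate starts, whose estimated shares differed between WT populations. RefSeq (GRCm38.p6) gave 15 start sites for the 8 genes, and the 250 bases before a start were read 5′ to 3′ on the gene's strand. Capitals mark matches, on either strand, to the nuclear receptor half-site AGGTCA, the GC box GGGCGG, the CCAAT box CCAAT and the TATA box TATAAA, whose letters do not contain one another. The main Rxra start had the window chr2:27676951-27677200 (plus strand), and the upstream and downstream Rarg starts had chr15:102257523-102257772 and chr15:102246501-102246750 (minus strand).
Rxra: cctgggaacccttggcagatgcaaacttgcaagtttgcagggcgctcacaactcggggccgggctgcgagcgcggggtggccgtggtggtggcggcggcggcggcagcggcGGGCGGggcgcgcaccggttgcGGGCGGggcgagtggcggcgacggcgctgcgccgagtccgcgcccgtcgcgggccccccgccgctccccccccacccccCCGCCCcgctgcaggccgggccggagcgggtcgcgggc
Rarg upstream: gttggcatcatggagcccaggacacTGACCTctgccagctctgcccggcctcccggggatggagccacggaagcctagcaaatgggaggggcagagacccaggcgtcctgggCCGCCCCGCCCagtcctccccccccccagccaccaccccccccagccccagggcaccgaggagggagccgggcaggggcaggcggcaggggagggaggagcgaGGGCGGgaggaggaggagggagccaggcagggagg
Rarg downstream: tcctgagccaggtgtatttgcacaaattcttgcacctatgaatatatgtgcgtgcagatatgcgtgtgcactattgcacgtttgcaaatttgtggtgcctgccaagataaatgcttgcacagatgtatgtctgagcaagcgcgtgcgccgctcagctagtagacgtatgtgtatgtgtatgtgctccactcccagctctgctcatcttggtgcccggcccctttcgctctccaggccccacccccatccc

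The printed Rxra window was 81.2% G and C, against a median of 52.4% over all 32851 windows, and held 3 GC boxes and none of the other motifs. Another Rxra start, downstream, had the window chr2:27709042-27709291, which is not printed. That window was 55.2% G and C and held 2 half-sites and none of the other motifs. The upstream Rarg window (74.4% G and C) held 3 GC boxes, a pair of them overlapping, and 1 half-site, while the downstream one (52.4%) held none of the 4 motifs. Over all windows, a GC box was present in 32.7%, a CCAAT box in 33.8%, a half-site in 14.0% and a TATA box in 12.4%. Among the 15 windows of the 8 genes, these were found in 9, 3, 2 and 0 windows. These matches describe letters and no binding was measured here.

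In GRCm38 the genes lay at chr2:27676440-27762957 (Rxra), chr17:34031812-34038399 (Rxrb), chr11:98927818-98974942 (Rara), chr15:102234938-102257517 (Rarg), chr15:97854425-97910630 (Vdr), chr7:44549616-44553951 (Nr1h2), chr2:91184061-91202834 (Nr1h3) and chr17:28232700-28301474 (Ppard). Nr1h3 overlaps another annotated gene on its strand, so its low counts are uncertain.

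In every population the receptor messages fell into a high and a low tier. Rxrb and Nr1h2, which encode the broadly used RXRβ and LXRβ, lay between 64.3 and 149 TPM in all 22 libraries, and the other 6 genes lay at 24.7 TPM or less. In WT CMP the order of mean levels was Rxrb (113 TPM), Nr1h2 (88.7), Ppard (8.91), Rarg (8.66), Rara (5.31), Vdr (5.22), Rxra (3.55) and Nr1h3 (1.41), and only the neighbours Ppard and Rarg, and Rara and Vdr, overlapped between mice. In WT GMP, Rarg and Ppard overlapped with means of 7.21 and 7.20 TPM, and Vdr, Rxra, Rara and Nr1h3 formed a chain of overlapping neighbours from 2.55 down to 1.44 TPM. In WT MEP, Rxrb and Nr1h2 overlapped at 80.0 and 78.6 TPM, Rxra (4.38 TPM) ranked above Rara (3.19), and Nr1h3 was lowest at 0.184. In WT LT-HSC, Vdr ranked next at 23.5 TPM, and Ppard was lowest at 1.25 TPM.

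**Figure D1:**
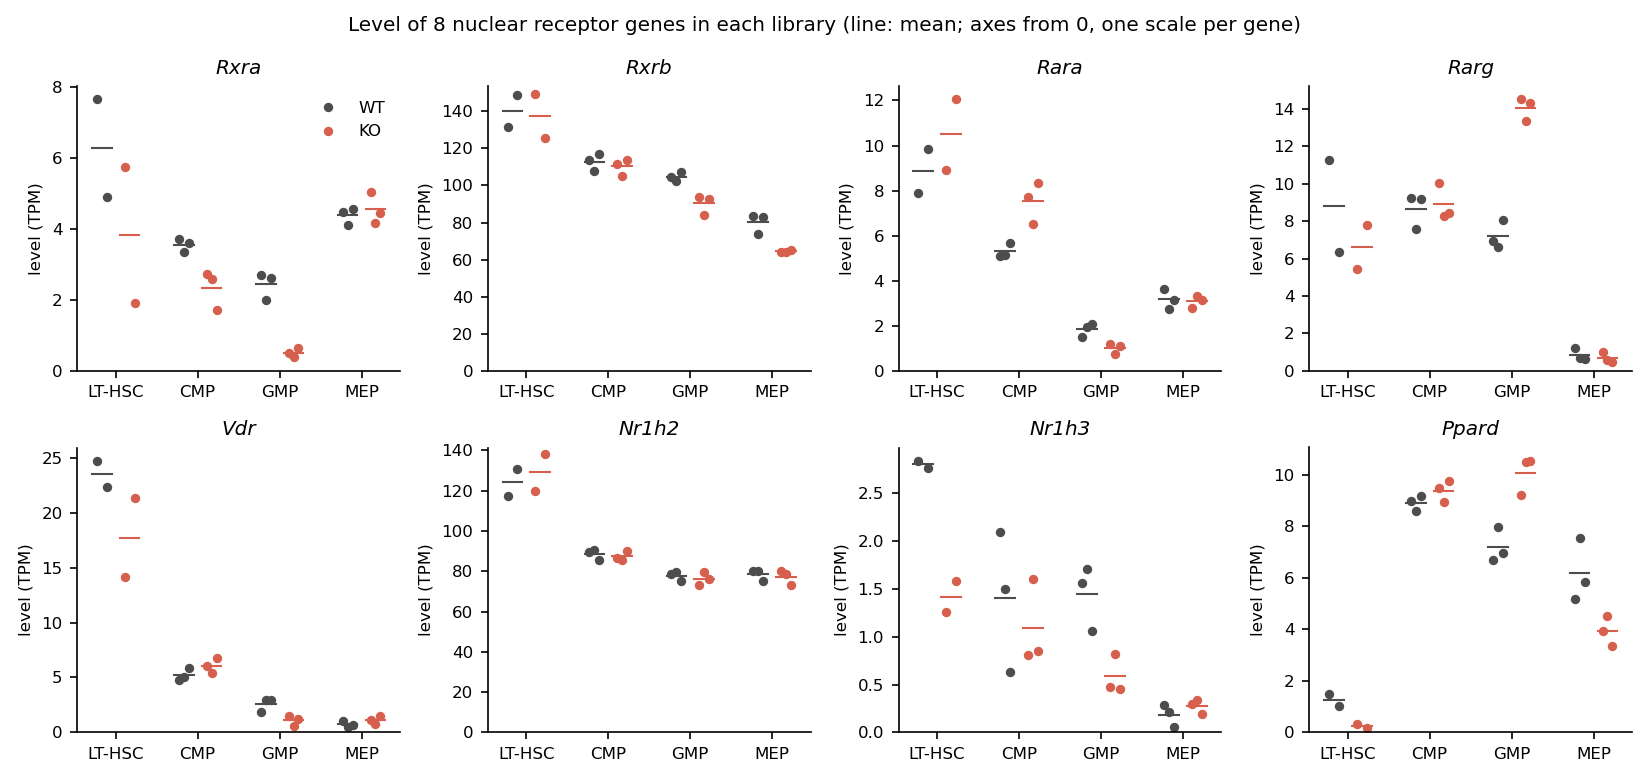
Level in TPM (vertical axes, from 0, one scale per gene) of each receptor gene in the 22 libraries by population; grey points are WT, red points KO, and lines are group means. Rxrb and Nr1h2 lie at or above 64.3 TPM in all libraries, and the Rxra points of KO GMP lie between 0.384 and 0.634 TPM.

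Differences between precursor populations in WT mice were tested with edgeR over all 18 precursor libraries together, blocked by mouse, calling genes at an FDR under 0.1. From CMP to GMP, 4 of the 8 genes were called, all lower in GMP, against 45.2% of 18523 genes called and 24.6% called lower. Rara, the receptor gene fused in promyelocytic leukaemia, fell by 1.28 on the log2 scale (SE 0.17, FDR = 3.1e-05), Vdr by 0.86 (SE 0.18) and Rxra by 0.50 (SE 0.14). The fourth, Rarg (log2 fold change -0.19, SE 0.08, FDR = 0.0830), lost its call in each alternative setting tried and without any one of 4 of the 6 mice.

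From CMP to MEP all 8 genes were called, against 70.6% of genes. Rarg was 9.74-fold lower in MEP (log2 fold change -3.28, SE 0.10), Vdr 6.48-fold lower (-2.70, SE 0.20) and Nr1h3, which encodes LXRα, 4.62-fold lower (-2.21, SE 0.38). Rxra went the other way and was 1.44-fold higher in MEP (0.52, SE 0.13, FDR = 0.00338). Rxrb (-0.27, SE 0.05) was also lower, and the calls of Rara (-0.47), Nr1h2 (0.13) and Ppard (-0.21) each ended without some single mouse. Between GMP and MEP, 7 of 8 genes were called, against 70.7% of genes, with Rarg 8.53-fold, Nr1h3 6.48-fold and Vdr 3.56-fold higher in GMP, and Rxra 2.04-fold and Rara 1.76-fold lower. Nr1h3 rested on 3 to 20 estimated counts per library in MEP.

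KO was then compared with WT within each population. In GMP 7 of the 8 receptor genes were called, against 33.9% of 16383 genes, with 3 higher (background 17.5%) and 4 lower (16.3%). The largest difference was in Rxra, which was at 2.71, 1.99 and 2.62 TPM in the 3 WT GMP libraries and at 0.503, 0.384 and 0.634 TPM in the 3 KO libraries. All KO libraries lay below all WT libraries, and the KO mean was 4.85-fold lower (log2 fold change -2.28, SE 0.19, FDR = 4.77e-05), with 70 to 99 estimated counts per KO library. In these bulk libraries, fewer cells that carry a message and less message per cell cannot be told apart.

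Rara also fell in GMP (-0.74, SE 0.23, FDR = 0.0394), from 1.51, 1.93 and 2.09 TPM in WT to 1.20, 0.753 and 1.10 TPM in KO. The genotypes did not overlap, but the call was lost without one WT mouse (FDR = 0.131) and without one KO mouse (FDR = 0.111). Rarg moved in the opposite direction and was 2.29-fold higher in KO GMP (1.20, SE 0.10, FDR = 3.77e-05). It was at 6.93, 6.64 and 8.08 TPM in WT and at 14.5, 13.4 and 14.3 TPM in KO, well apart. The summed message of Rara, Rarb and Rarg was 9.27 ± 1.03 TPM in WT and 15.2 ± 0.81 TPM in KO (SD, n = 3), and the share of Rara in it was 19.9% in WT and 6.64% in KO GMP.

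Vdr was 2.26-fold lower in KO GMP (-1.18, SE 0.29, FDR = 0.0153), at 1.82, 2.92 and 2.91 TPM in WT and 1.54, 0.589 and 1.25 TPM in KO. Nr1h3 was 2.20-fold lower (-1.14, SE 0.31, FDR = 0.0236), at 1.55, 1.71 and 1.06 TPM in WT and 0.478, 0.817 and 0.457 TPM in KO. Its estimated counts were few, at 68 to 102 per WT library and 30 to 42 per KO library. Both genes were lower in each KO library than in any WT library. Ppard, which encodes the fatty acid sensor PPARδ, was 1.55-fold higher (0.63, SE 0.10, FDR = 0.00194), at 6.68, 7.96 and 6.97 TPM in WT and 9.21, 10.5 and 10.5 TPM in KO. Again the genotypes were apart.

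The abundant receptors moved little in GMP. Nr1h2 had a small positive difference (0.16, SE 0.06, FDR = 0.0846), while its mean level was 77.9 TPM in WT and 76.3 TPM in KO, so that direction depended on the scale, and the call was lost without any one of 5 of the 6 mice. Rxrb was not called (-0.04, SE 0.06, FDR = 0.685) and its normalised counts overlapped, although its TPM values were apart, at 105, 102 and 107 in WT and 93.8, 84.03 and 92.9 in KO. Normalised counts were scaled between libraries by TMM factors, whereas TPM is scaled to a fixed total and divides by the length of the assigned transcripts. The Nr1h2 call was also lost with a transcript length offset (0.11, edgeR FDR = 0.358) and without the filter on low counts (FDR = 0.126). Beyond the alternative settings run, the parts of scaling and length in these differences were not tested.

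**Figure D2:**
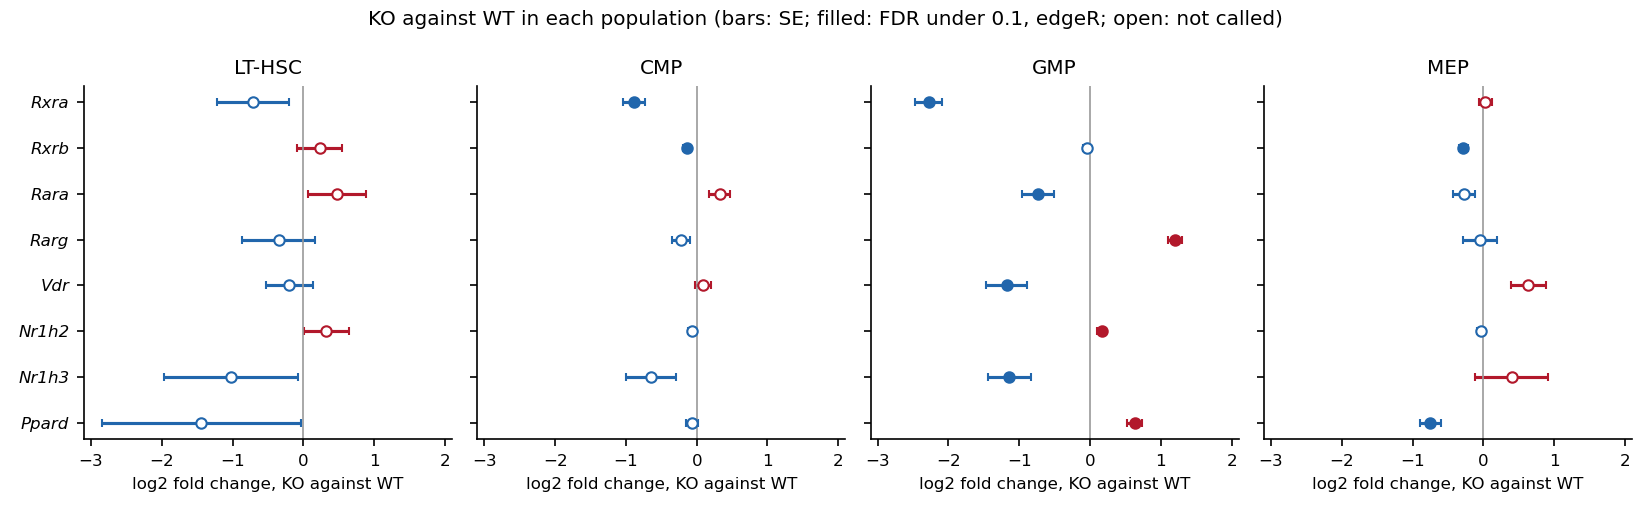
Log2 fold change of KO against WT (horizontal axes; bars are SE) for each receptor gene in each population; filled points were called at an FDR under 0.1 and open points were not. GMP holds 7 filled points, led by Rxra at -2.28, whereas LT-HSC holds 0 and has wide bars.

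Marker lists of other cells also moved in GMP. Basophil and mast cell markers, 6 of 6 of which were lower, summed to 780 to 1246 TPM in WT and 127 to 176 TPM in KO, with none at 0. GMP markers summed to 31671 to 37179 TPM in WT and 41932 to 47224 TPM in KO, with 6 of 10 higher and 3 lower. The 4 markers of the CMP gate summed to 472 to 509 TPM in WT and 273 to 363 TPM in KO, with 2 lower, and monocyte and macrophage markers to 1277 to 1501 and 1090 to 1247 TPM, with 2 of 11 tested higher and 3 lower. Neutrophil markers summed to 182 to 399 TPM in WT and 421 to 1351 TPM in KO, with 4 of 10 higher and 4 lower. LT-HSC markers had 6 of 10 lower and 1 higher in GMP, and megakaryocyte markers 2 of 7 lower and 1 higher. The part of these shifts in the receptor differences was not tested.

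In CMP, 2 of the 8 genes were called, both lower in KO (background 23.4% of 17214 genes in either direction and 12.8% lower). Rxra was 1.85-fold lower (-0.89, SE 0.15, FDR = 0.00413), at 3.71, 3.35 and 3.60 TPM in WT and 2.72, 2.58 and 1.72 TPM in KO, with no overlap. Rxrb differed by -0.14 (SE 0.05, FDR = 0.0814), and this call was lost under DESeq2 (FDR = 0.105), without the filter on low counts, with a transcript length offset and without any one of mice 300, 301, 304 and 309. The number of receptors called in CMP was accordingly 1 without mouse 300, 301 or 309, and it was 3 without mouse 305, where Rarg was called too. Rara was higher in each KO library by TPM, at 5.12, 5.13 and 5.69 TPM in WT and 7.71, 6.53 and 8.32 TPM in KO, but did not pass on counts (0.32, SE 0.14, FDR = 0.178) and did with a transcript length offset (0.40, FDR = 0.0782). Rarg (-0.23, SE 0.13), Vdr (0.09, SE 0.11), Nr1h2 (-0.07, SE 0.06), Nr1h3 (-0.64, SE 0.35) and Ppard (-0.07, SE 0.09) were not called. Summed GMP markers were 4159 to 5175 TPM in WT CMP and 1874 to 2872 TPM in KO CMP, and MEP markers 1347 to 1459 and 1820 to 2235 TPM, with 9 of 10 MEP markers higher. In CMP, neutrophil markers had 6 of 10 lower and basophil and mast cell markers 4 of 6 lower, with none higher in either list. Megakaryocyte markers had 5 of 7 lower and 2 higher. The part of these marker differences in the Rxra difference was not tested.

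In MEP, 2 of the 8 genes were called, both lower in KO (background 29.4% of 15777 genes in either direction and 15.4% lower). Rxrb was 1.22-fold lower (-0.28, SE 0.06, FDR = 0.0123), at 83.3, 73.8 and 83.1 TPM in WT and 64.3, 64.4 and 65.0 TPM in KO. Ppard was 1.68-fold lower (-0.75, SE 0.15, FDR = 0.00945), at 5.18, 7.53 and 5.83 TPM in WT and 3.92, 4.50 and 3.35 TPM in KO. For both genes the KO libraries lay below the WT libraries. Rxra gave no call (0.03, SE 0.09), at 4.48, 4.11 and 4.55 TPM in WT and 5.05, 4.15 and 4.44 TPM in KO, which overlapped. Vdr was at 1.05, 0.530 and 0.690 TPM in WT and 1.15, 0.758 and 1.49 TPM in KO and just missed the threshold (0.64, SE 0.24, FDR = 0.104), which it passed with DESeq2 (FDR = 0.0700). With neighbouring mouse numbers as a replicate block, Vdr passed too (0.63, FDR = 0.0436). Megakaryocyte markers summed to 30.3 to 51.5 TPM in WT MEP and 80.6 to 103 TPM in KO MEP, with 4 of 7 higher. MEP markers summed to 7423 to 8447 TPM in WT and 5858 to 6390 TPM in KO, but 5 of 10 were higher and 1, Car1, was lower, at means of 4499 and 2172 TPM. The part of these markers in the receptor differences was not tested.

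In LT-HSC none of the 8 genes was called by edgeR or DESeq2, and 0 had an unadjusted p under 0.05 (edgeR, background 0.0792% of 22733 genes called, 18 in all, and 1180 with an unadjusted p under 0.05). Rxra was at 7.66 and 4.90 TPM in WT and 5.74 and 1.92 TPM in KO (-0.71, SE 0.51), and its TPM values overlapped. Ppard was at 1.49 and 1.02 TPM in WT and 0.314 and 0.158 TPM in KO (-1.44, SE 1.40), and Nr1h3 at 2.83 and 2.76 TPM in WT and 1.26 and 1.58 TPM in KO (-1.03, SE 0.94). Both were lower in each KO library but on few counts, with 22 to 72 for Ppard. By normalised counts, Rxra was also lower in each KO library. An exact permutation test of 2 against 2 libraries cannot go below 0.333, so such separation carries little weight. Vdr was at 24.7 and 22.3 TPM in WT and 14.1 and 21.3 TPM in KO (-0.20, SE 0.33), and Rarg at 11.2 and 6.35 TPM in WT and 5.44 and 7.80 TPM in KO (-0.35, SE 0.52). Rxrb (0.23, SE 0.32), Rara (0.47, SE 0.41) and Nr1h2 (0.32, SE 0.32) had positive differences with wide errors. Neutrophil markers summed to 470 and 2780 TPM in the 2 WT LT-HSC libraries and to 413 and 421 TPM in KO.

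The KO effects themselves were compared between precursors by the interaction term of the joint model. Between GMP and CMP the effect differed for 6 of the 8 receptors, against 21.0% of 18523 genes, and Rxrb and Nr1h3 were the 2 not called. Between MEP and CMP it differed for Rxra and Ppard, 2 of 8 against 13.1% of genes. Between GMP and MEP it differed for 7 of 8, all but Rara, against 26.8% of genes. Ppard was the receptor gene with called KO effects of opposite sign, higher in GMP and lower in MEP, a difference of 1.38 on the log2 scale (SE 0.15, FDR = 2.27e-05).

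The balance of the RXR partners was expressed as the log2 of Rxra TPM over Rxrb TPM. Rxrg, the gene of the remaining RXR, did not pass the filter on low counts in the precursors, where it was at 0.438 TPM or less. Rxra was the minor message in all 22 libraries. In WT, Rxrb exceeded Rxra 30.6- to 32.5-fold in CMP, 38.7- to 51.4-fold in GMP and 17.9- to 18.6-fold in MEP, so the 3 populations did not overlap. In KO the ranges were 40.8 to 66.2 in CMP, 147 to 219 in GMP and 12.7 to 15.5 in MEP, so the KO libraries lay beyond the WT range upward in CMP and GMP and downward in MEP.

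On the log2 scale the balance in GMP was -5.44 ± 0.22 in WT and -7.51 ± 0.29 in KO (SD, n = 3), a difference of -2.07 (SE 0.21), and Rxra made up 2.27% of the pair in WT and 0.555% in KO. In CMP it was -4.99 ± 0.05 in WT and -5.58 ± 0.40 in KO, a difference of -0.60 (SE 0.23). In MEP it was -4.19 ± 0.03 in WT and -3.83 ± 0.15 in KO, a difference of 0.36 (SE 0.09), with Rxra at 5.19% and 6.58% of the pair. The 2-sided exact permutation test gave p = 0.1 in each precursor population, the smallest that 3 against 3 libraries allow, and 0.133 after Benjamini-Hochberg adjustment over the 4 populations. In LT-HSC the difference was -0.85 (SE 0.78, exact permutation p = 0.667, where 2 against 2 cannot go below 0.333). The gene that moved differed, since Rxra fell in CMP and GMP, whereas in MEP Rxrb fell and Rxra was not called.

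**Figure D3:**
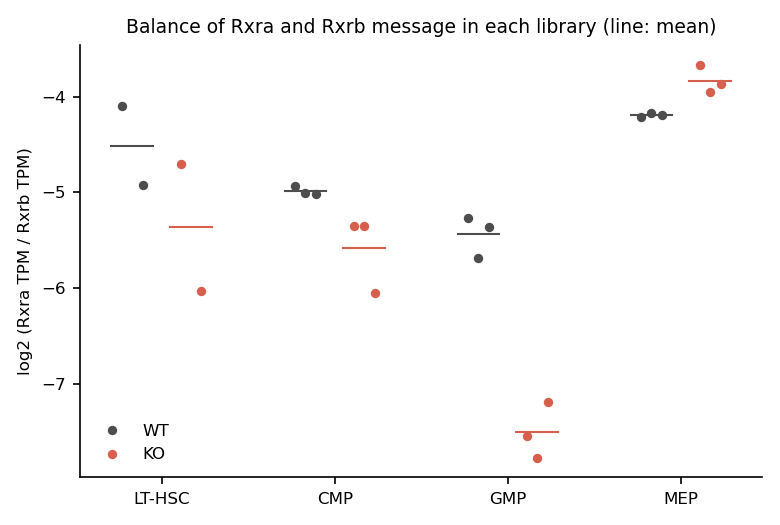
Log2 of Rxra TPM over Rxrb TPM (vertical axis) in each library by population; grey points are WT, red points KO, and lines are group means. KO GMP libraries lie around -7.51, below the WT GMP mean of -5.44, and KO MEP libraries lie above WT MEP.

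Transcript estimates were read with caution, because kallisto divides reads among overlapping transcripts of one gene. Rxra-201, the transcript whose promoter is printed above, held 80.9% of Rxra TPM in WT GMP and 72.5% in KO GMP, with means of 1.95 and 0.358 TPM, so the fall was in the main transcript. In LT-HSC, Rxra-206, which starts near it, held a similar share (44.4% against 44.6% in WT). A retained-intron transcript, Ppard-202, held 62.9% of Ppard TPM in WT LT-HSC. For Rarg, the downstream Rarg-202 (first base 102246500 on chromosome 15) held 78.4% in WT GMP and 83.9% in KO GMP and was at 5.62 ± 0.60 and 11.8 ± 0.84 TPM (SD, n = 3). The Rarg-202 shares overlapped between genotypes, at 68.4 to 90.5% in WT and 81.6 to 87.5% in KO. Rarg-201, with the first base 102257517 near the upstream window, was at 0.0559 TPM on average in WT GMP and listed at 0 in all 3 KO GMP libraries, against 0.763 TPM in WT CMP and 1.80 TPM in WT LT-HSC. The additional Rarg message of KO GMP was thus assigned mainly to the downstream start.

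Rxrb-201 and Rxrb-202, which start at bases 34031812 and 34032401 of chromosome 17, were used in different shares between populations. Rxrb-201 held 33.1% of Rxrb TPM in WT CMP, 30.9% in WT GMP and 19.1% in WT MEP, while Rxrb-202 held 34.7%, 35.4% and 45.7%. In KO MEP the shares were 21.99% and 47.0%, with Rxrb-201 at 15.3 TPM in WT and 14.2 in KO and Rxrb-202 at 36.5 and 30.4 TPM. In GMP, Rxrb-201 was at 32.4 TPM in WT and 26.0 TPM in KO. In MEP, the retained-intron Rxrb-204 was at 6.04 TPM in WT and 5.32 in KO, and Rxrb-210 at 9.82 and 5.56 TPM. No test was run on single transcripts.

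Genes of the same pathways, taken from lists fixed by role, were read beside the receptors. As background, CMP had 23.4% of all tested genes called in either direction, GMP 33.9% and MEP 29.4%. Several list counts lay near these shares, and the counts are given as descriptions. Among genes of proteins that bind the receptors, the corepressor list had 2 higher and 1 lower of 9 tested genes in CMP, 2 and 2 of 9 in GMP, and 4 and 2 of 9 in MEP. Nrip1, of a corepressor recruited by ligand-bound receptors, was higher in CMP (0.30) and MEP (0.61) and lower in GMP (-0.22), and Hdac3, of a histone deacetylase, was lower in MEP (-0.30). Of the coactivators, 2 of 15 were higher in CMP, with Ncoa7 at 0.25 and Med1 at 0.19, and 1, Ncoa3, was lower (-0.38). Ncoa3 was also the 1 called gene of 14 in GMP (-0.38), and in MEP 4 of 14 were higher, with Kat2b at 0.53, and 3 lower, with Kat2a at -0.35.

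For ligand supply, Aldh1a1, whose enzyme makes retinoic acid from retinal, was higher in KO in CMP (1.35), GMP (1.16) and MEP (0.35), at mean levels of 36.5 and 99.5 TPM in WT and KO CMP, 1.69 and 3.43 TPM in GMP, and 83.9 and 109 TPM in MEP. In GMP, Cyp26b1, of an enzyme that degrades retinoic acid, was higher (1.62) and Dhrs3, of a retinal reductase, lower (-1.08). Fabp5, which carries fatty acids and retinoic acid, was lower in CMP (-0.48) and MEP (-2.26). In all, the list of retinoid uptake and metabolism had 1 higher and 3 lower of 14 in CMP, 3 and 2 of 14 in GMP, and 2 and 2 of 13 in MEP, with medians of -0.06, -0.08 and -0.04 beside medians of 0.00, -0.01 and 0.00 over all genes.

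Among known targets, the RAR list had 1 higher and 2 lower of 10 in CMP, 3 and 1 of 8 in GMP, and 2 and 0 of 6 in MEP. The median of the RAR list in GMP was nevertheless negative, at -0.31 beside -0.01 over all genes. Tgm2 rose in CMP (1.40), MEP (0.87) and, named there after its value was seen, GMP (1.61), and Cebpe, a factor of granulocyte maturation, rose in GMP (0.56). In GMP the LXR list had 6 lower and 2 higher of 12, beside 16.3% of all genes lower and 17.5% higher, and a median of -0.63, and Apoe, of a lipid carrier, fell from 173 to 53.7 TPM (-1.54). The sterol exporter genes Abca1 (-1.32) and Abcg1 (-0.86), named after their values were seen, were among these 6. In CMP the LXR list had 2 higher and 3 lower of 15, and in MEP 1 and 5 of 13, where Scd1, of a fatty acid desaturase, rose (3.06) and Apoe fell (-1.76). The PPAR list had 5 higher and 1 lower of 10 in GMP, led upward by the lipid droplet gene Plin2 (0.74), 1 and 2 of 11 in CMP, and 2 and 3 of 10 in MEP, where Plin2 (0.63) rose and Cd36, of a fatty acid carrier, fell (-1.47). In the VDR list, Thbd (thrombomodulin) rose in CMP (0.66), GMP (1.37) and MEP (2.93), and the counts were 1 and 1 of 5, 3 and 1 of 5, and 2 and 0 of 4. Many of these targets answer to other factors too, and Dhrs3 and Cyp26b1 stand in both the metabolism and the RAR lists.

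Of the other nuclear receptors, 2 were higher and 8 lower of 22 in CMP, 1 and 8 of 20 in GMP, and 1 and 6 of 17 in MEP, with medians of -0.21, -0.37 and -0.33. Nr4a2, an orphan receptor of the immediate early response, fell in all 3 (by 1.13, 1.09 and 1.68), Nr0b2 fell in CMP (by 1.46) and GMP (by 2.42), and the thyroid hormone receptor gene Thra fell in MEP (by 0.61). The 7 further genes of the RXR, RAR, LXR and PPAR families and their kin were mostly untested for low counts, with 3, 2 and 2 tested and 1 called, Nr1i3 in GMP (1.19), which was named after its values were seen. LT-HSC values of the lists are not described, since 18 of 22733 genes were called there.

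**Figure D4:**
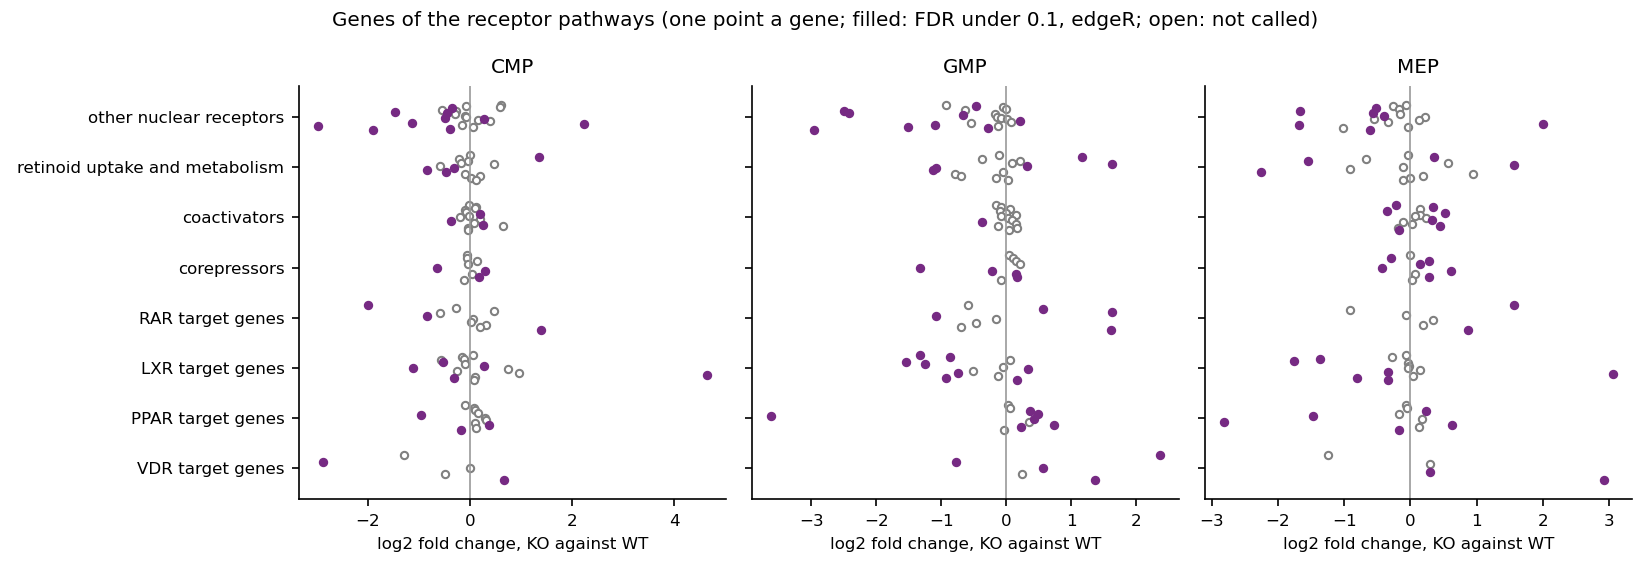
Log2 fold change of KO against WT (horizontal axes) for each tested gene of 8 pathway lists in CMP, GMP and MEP; filled points were called at an FDR under 0.1. LXR target genes in GMP hold 6 filled points to the left of 0 and 2 to the right.

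The genes most like each receptor over the 18 precursor libraries, by Pearson's r of log2 normalised counts, were named as a description, since the libraries share mice and populations. For Rxra they were Mical3 (r = 0.97), St6galnac3 (0.96), Hdac10 (0.96), Gja1 (0.96) and Sdsl (0.96). For Rarg they were Mrtfa and Cdc14a (both 0.99), for Rxrb Atxn10 and Zfp768 (both 0.98), for Rara Zfp385a (0.97), and for Vdr Map4k4 (0.98) and Pogk (0.97). Ppard lay closest to Abca7 (0.93) and Sh3bp1 (0.91), Nr1h3 to Ctdspl (0.90) and Dnal4 (0.89), and Nr1h2 to Pfn1 (0.88) and Chmp2a (0.86). Among the receptors themselves, the strongest negative pairs were Vdr with Nr1h2 (r = -0.81), Rxra with Rarg (-0.79) and Rxra with Ppard (-0.77), and the strongest positive pair was Rxrb with Rarg (0.85).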

How the data were processed

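RNA-seq was available for 22 libraries of sorted cells, each read as 1 mouse by its replicate number. The authors quantified reads against mouse transcripts (GRCm38/mm10) with kallisto and deposited, for each library and transcript, an estimated count, TPM and an effective transcript length, and they named DESeq2 for their tests. The deposited estimated counts and TPM were summed per gene by GENCODE vM21 names, which paired 114200 of 115088 transcripts (99.2%), leaving 0.233 to 0.363% of counts unpaired. Summed counts were rounded and tested with edgeR 4.0.16 (R 4.3.3; quasi-likelihood test, TMM, filterByExpr, Benjamini-Hochberg FDR under 0.1). KO was tested against WT within each population. Populations, and differences of KO effects, were tested in a joint model over 18 precursor libraries. This model was blocked by mouse, since CMP, GMP and MEP libraries share replicate numbers, which were read as mice. Fold changes are on counts, levels in TPM, and CPM denotes TMM-normalised counts. Totals on genes were 40804031 to 65930737. Tests of KO against WT within a population set the difference against the spread between mice of a genotype. Tests in the joint model set it against the spread left after differences between mice were removed.

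KO and WT mice have neighbouring numbers. Deviations from group means correlated over 0.1 in each of 3 neighbouring pairs in CMP (lowest 0.116) and GMP (lowest 0.208) but not in MEP (lowest -0.0302), and the labels do not say what the numbers mean. Alternatives were RLE scaling, no filter, a length offset, DESeq2 1.42.0, the block and each mouse left out. The edgeR steps were tested on simulated data.

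The receptors, lists and tests were chosen with earlier results of these data known. Named genes are the 8 receptors, Arid1a, the most alike genes (mean of at least 5 CPM) and, from each list and precursor, up to 2 most-risen and 2 most-fallen genes among those called, with genotypes apart and a mean of at least 1 TPM. Marker and pathway lists were read by their counts. Promoter sequence is from RefSeq (GRCm38.p6). Proteins were not used here. A few genes that met the naming rule are not reported here. Python 3.11.15 with scipy 1.17.1 gave the permutation tests.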

Additional observations from a re-analysis of the deposited data

Results flagged for a closer look

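The KO effect on several receptors differed between precursor populations by the interaction term of the 18-library edgeR fit (FDR under 0.1), each as a log2 difference of KO effects. GMP less CMP gave 6 of 8 receptors, against 21.0% of 18523 genes: Rxra (-1.37, FDR = 0.000545), Rara (-1.05, FDR = 0.00804), Rarg (1.43, FDR = 6.19e-06), Vdr (-1.30, FDR = 0.00364), Nr1h2 (0.24, FDR = 0.0364) and Ppard (0.71, FDR = 0.00428). MEP less CMP gave 2, against 13.1% of genes: Rxra (0.91, FDR = 0.00779) and Ppard (-0.67, FDR = 0.0111). GMP less MEP gave 7, against 26.8% of genes: Rxra (-2.29, FDR = 5.24e-06), Rxrb (0.25, FDR = 0.0199), Rarg (1.26, FDR = 3.52e-05), Vdr (-1.79, FDR = 0.000506), Nr1h2 (0.21, FDR = 0.0547), Nr1h3 (-1.60, FDR = 0.0507) and Ppard (1.38, FDR = 2.27e-05). The 3 differences share libraries and are not separate evidence. Ppard had opposite called directions in GMP (0.63) and MEP (-0.75). The 3 Nr1h2 and Nr1h3 calls and the Rxrb call each ended without some single mouse.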

How the results depend on the processing

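Rxra in GMP and CMP, Rarg, Vdr, Nr1h3 and Ppard in GMP, and Rxrb and Ppard in MEP kept their direction and call in KO against WT under every setting run (RLE scaling, no filter, length offset, DESeq2, block, each mouse left out). Without single mice, Rxra ranged from -2.44 to -2.19 in GMP and from -0.99 to -0.74 in CMP, Rarg in GMP from 1.10 to 1.25, and the balance difference from -2.22 to -1.93 in GMP, -0.71 to -0.37 in CMP and 0.28 to 0.42 in MEP. The number of receptors called in CMP was 1 without the filter, 1 with DESeq2, and 1 (without mouse 300, 301 or 309) to 3 (without mouse 305) when single mice were left out. Values not called that changed sign were Vdr in LT-HSC (-0.71 to 0.22 without single mice), Rxra in MEP (-0.025 to 0.093), Rarg in MEP (-0.17 to 0.067), Rxrb in WT GMP against CMP (-0.0028 to 0.037), Ppard in WT GMP against MEP (-0.012 to 0.14) and the difference of the Rarg effects in MEP and CMP (-0.30 with the length offset); the cause was not tested. Over all results, 417 of the values without single mice kept side and direction, 35 lost and 5 gained a call and 7 changed sign; for other settings 403, 16, 4 and 1. The neighbour-number replicate block changed 1 KO call, Vdr in MEP (0.63, FDR = 0.0436). Depth limits Nr1h3 in all precursors, most of all in MEP, and Ppard in LT-HSC.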
